A study of Mus musculus with 12 samples.

Results

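The livers of Atf3;Cpt2 liver-specific double KO mice (DKO) were compared with those of floxed controls (WT), to describe which response to the loss of Cpt2 remained when Atf3 was lost as well. The comparison holds 8 of the 12 livers that were sequenced, 4 DKO and 4 WT, chosen by their labels, and all genes of the count table. The other 4 livers, from Cpt2 liver-specific single KO mice (SKO), are given beside it. All mice had been fasted for 24 h, and whole liver RNA was sequenced. The floxed genes were removed by a Cre recombinase driven by the albumin promoter, which is active in hepatocytes, so that other cells of the liver keep both genes. The controls are labelled as floxed for Cpt1a, Cpt1b and Cpt2, and their labels name neither a Cre transgene nor a floxed Atf3 allele. Effects of these alleles and effects of the KOs cannot be told apart here. The labels give no age and no sex, while the paper describes the sequenced mice as male.

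Cpt2, carnitine palmitoyltransferase 2, turns long-chain acylcarnitines back into acyl-CoAs at the inner mitochondrial membrane, a step that long-chain fatty acids need before β-oxidation. In a fast the liver takes up fatty acids from adipose tissue, oxidizes them and makes ketone bodies, and the nuclear receptor PPARα, which senses fatty acids, switches on the genes of this program. Atf3 is a basic leucine zipper transcription factor of the ATF/CREB family that is induced by many kinds of stress, among them amino acid shortage and damage to mitochondria or the endoplasmic reticulum, in part through its relative ATF4.

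Factors of this family bind short, known letters of DNA, and of the 10 genes with the largest rises that all 4 DKO livers shared, 8 had a promoter in the table and 3 of these hold such letters in the 250 bases before their start. Nrg1 and Tmem171 were not searched. They are shown because these genes were higher in all 4 DKO livers than in WT, and Fgf21 and Nupr1 are on the list of the integrated stress response, in which Atf3 takes part. The sequences are those of RefSeq on GRCm38.p6, written 5′ to 3′ on the strand of the gene, and capitals mark the match. Fgf21, a fasting hormone of the liver, lies at chr7:45615491-45615740 on the minus strand and has TTGCATCA 139 bases before its start. Nupr1, a small chromatin protein of the stress response, lies at chr7:126625471-126625720 on the minus strand with TTGCATCA 110 bases before its start. Both are the composite site of ATF4 and C/EBP factors (TGATGNAA) read on the other strand. Cgref1, a secreted calcium-binding growth regulator, lies at chr5:30945481-30945730 on the minus strand, with the AP-1 letters TGAGTCA 180 bases before its start.
Fgf21: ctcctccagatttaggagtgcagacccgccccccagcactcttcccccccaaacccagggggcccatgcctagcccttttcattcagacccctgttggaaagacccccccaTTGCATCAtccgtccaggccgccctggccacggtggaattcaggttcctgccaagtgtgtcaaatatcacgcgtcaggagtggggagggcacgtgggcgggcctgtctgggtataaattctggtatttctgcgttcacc
Nupr1: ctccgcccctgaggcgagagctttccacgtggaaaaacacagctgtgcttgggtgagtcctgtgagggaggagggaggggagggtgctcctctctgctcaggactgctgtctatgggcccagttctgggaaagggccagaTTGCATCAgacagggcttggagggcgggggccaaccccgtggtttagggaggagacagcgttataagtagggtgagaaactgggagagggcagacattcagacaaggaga
Cgref1: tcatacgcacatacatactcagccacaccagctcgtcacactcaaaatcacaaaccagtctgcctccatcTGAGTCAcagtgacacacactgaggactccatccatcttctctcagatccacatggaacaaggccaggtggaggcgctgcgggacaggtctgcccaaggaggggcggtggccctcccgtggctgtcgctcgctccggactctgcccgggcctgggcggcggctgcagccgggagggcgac

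The motifs searched on both strands were the cAMP response element TGACGTCA, the AP-1 site TGANTCA and the composite TGATGNAA, and no match of any of them is itself a match of another. Of 21 named genes looked up, 15 had a promoter in the table and 4 had a match, the last being Map2k6, a kinase that activates p38, among the falls. The shares of genes that follow are of protein-coding genes. They count a match anywhere in a gene's promoter windows, not only in the 250 bases before the start, as the matches above do. Over all 9810 genes tested with a promoter in the table, 2.77% held the composite, against 4.51% of 621 genes called higher in DKO livers and 1.99% of 453 called lower. Without DKO 4 these shares were 2.83%, 3.3% of 1938 and 2.86% of 1820. The cAMP response element was present in 3.54% of the genes called higher, 1.99% of those called lower and 3.39% of all, and the AP-1 site in 6.6%, 6.4% and 6.54%. Without DKO 4 the shares were 4.44%, 1.98% and 3.42% for the cAMP response element and 6.86%, 8.02% and 6.52% for the AP-1 site. Among all 32851 promoter windows of the table the composite was found in 3.97%. A match is a description of these letters and was not tested as a binding site.

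Before the results, the livers were checked against their labels. Values are CPM, the counts of a gene divided by the size of its library after TMM scaling over 12 livers and expressed per 1e+06 counts. Cpt2 (chromosome 4, 107761178 to 107780807) had 119, 124, 125 and 99.9 CPM in DKO 1 to 4 and 199 to 250.4 CPM in WT livers. All DKO livers lay below all WT livers, at a log2 fold change of -0.99 ± 0.13 (SE, 4 livers against 4, edgeR adjusted p = 0.00627). In whole liver, fewer cells of a type and less RNA per cell cannot be told apart, and the table holds counts per gene, so that transcripts of the floxed allele and of cells without Cre are counted together. Atf3 (chromosome 1, 190902493 to 190950236) had 7.91, 10.8 and 13.5 CPM in DKO 1 to 3, 0.266 CPM in DKO 4, 1.11 to 2.14 CPM in WT and 14.5 to 54.0 CPM in SKO livers. Counted over the whole gene, Atf3 RNA was thus above WT in 3 DKO livers and below it in the last, and without DKO 4 the log2 fold change against WT was 2.77 ± 0.28 (edgeR adjusted p = 2.74e-05). Cpt1a, the outer membrane transferase that precedes Cpt2, had 1171, 1507, 1077 and 1049 CPM against 884 to 1059 CPM in WT, with an overlap through DKO 4 only. It was not called with DKO 4 (0.31 ± 0.15, edgeR adjusted p = 0.212) and just passed the threshold without it (0.36 ± 0.13, edgeR adjusted p = 0.0490). Its muscle form Cpt1b stood at 1.06 to 3.47 CPM in DKO and 0.275 to 0.715 CPM in WT livers, with no overlap, at a log2 fold change of 2.38 ± 0.44 (edgeR adjusted p = 0.0167).

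DKO 4 stood apart. Xist, the RNA that silences an X chromosome in females, reached 20855 counts in it and at most 19 in DKO 1 to 3 and the WT livers. Summed over Uty, Kdm5d, Eif2s3y and Ddx3y, which lie on the Y chromosome, DKO 4 had 0 counts and these other livers had 2741 to 3964. SKO 3 resembled DKO 4, with 18063 and 2 counts. Over 9790 genes, the median absolute log2 difference from the other DKO livers was 0.358 for DKO 4 and 0.191 to 0.229 for DKO 1 to 3, while that from the WT livers was 0.212 for DKO 4 and 0.347 to 0.371 for DKO 1 to 3. Total counts ranged from 14710304 to 20030055 over the 12 livers, with 19359134 in DKO 4. Ribosomal RNA took 1.45 to 2.86% of the counts in DKO livers, highest in DKO 4, and 0.506 to 1.46% in WT livers, and its part in the results was not tested. A gene at 0 counts may hold up to 3 counts by chance, at most 0.204 CPM, and this limit covers counting error only. The Xist and Y-linked counts go against a description of all the mice as male, and the identity of the libraries labelled DKO 4 and SKO 3 is in doubt. Cpt2 and Atf3 were lower in DKO 4 than in any other DKO or WT liver. Whether DKO 4 is the animal and genotype of its label was not tested further, and every value for all 4 DKO livers rests on that label. The main comparisons are therefore given with all 4 DKO livers and with DKO 1 to 3.

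A gene is called when its edgeR adjusted p is under 0.05. With all 8 livers, 1510 of 14448 genes tested (10.5%) were called, 876 higher (6.06%) and 634 lower (4.39%) in DKO livers. Without DKO 4, 5253 of 14634 (35.9%) were called, 2698 higher (18.4%) and 2555 lower (17.5%). These shares over all genes are called the background below, and nothing is read about a list from a count near it. The median log2 fold change of all genes was 0.03 and 0.02. DKO 4 held 6564 of the 14448 genes within the range of the 4 WT livers, and DKO 1, 2 and 3 held 4792, 4661 and 4630. Leaving out another liver in place of DKO 4 lowered the count, to 398, 379 and 288 without DKO 1, 2 or 3 and to 263, 244, 719 and 367 without WT 1, 2, 3 or 4. Of the named genes called with all 4 DKO livers, 6 passed the filter on low counts through 1 group only, so that they had to differ and are left aside. In these, every liver of the other group was under the filter. Genes with only part of a group under it, among them Nupr1, Elovl7, Obp2a, S1pr5 and Birc5, are counted with the rest, and the filter favours a difference in them too. The other 85 were all called without DKO 4 as well. Of these, 31 kept their call whichever liver was left out, with Pdk4, Gdf15, Fgf21, Nupr1, Cgref1, Ppp1r3g, Plin2, Hilpda, Acot1, Acot2, Pex11a, Crat, Slc25a30, Cd36, Acacb, Slc16a1, Orm2, Grpel2, Flcn, Ctsz, Cd9 and Gstm4 of the rises. Among the falls these were Cpt2, Cyp7a1, Slco1a1, Cyp2f2, Gm3839, Obp2a, Manf, Dnajb11 and Nampt. The others lost it without at least 1 liver other than DKO 4. The largest rises and falls were chosen for a call with and without DKO 4, and the genes of lists for a small p in the fit with all livers. These counts are thus in part set by the choice and are no test of how firm the calls are. Of the named genes called without DKO 4, 13 passed the filter through 1 group only, and of the other 107, 105 kept their call whichever further liver was left out, and the exceptions were Cpt1a and Mup8.

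**Figure D1:**
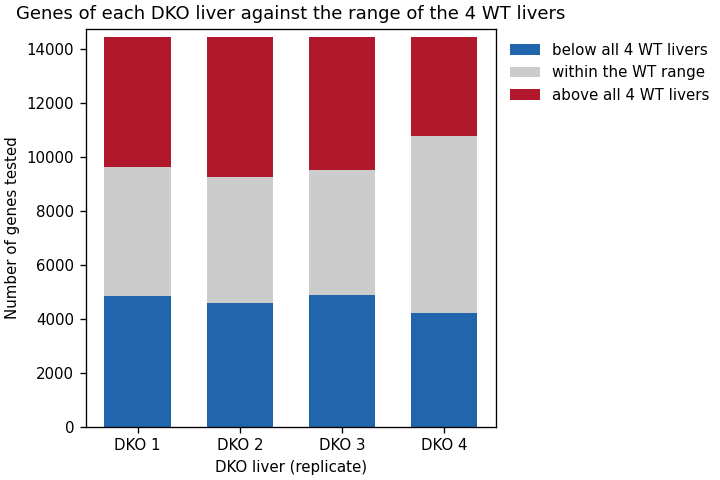
Stacked bars give, for each DKO liver on the horizontal axis, the number of the 14448 tested genes below, within and above the range of the 4 WT livers. The grey part is 6564 genes in DKO 4 and 4630 to 4792 genes in DKO 1 to 3.

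**Figure D2:**
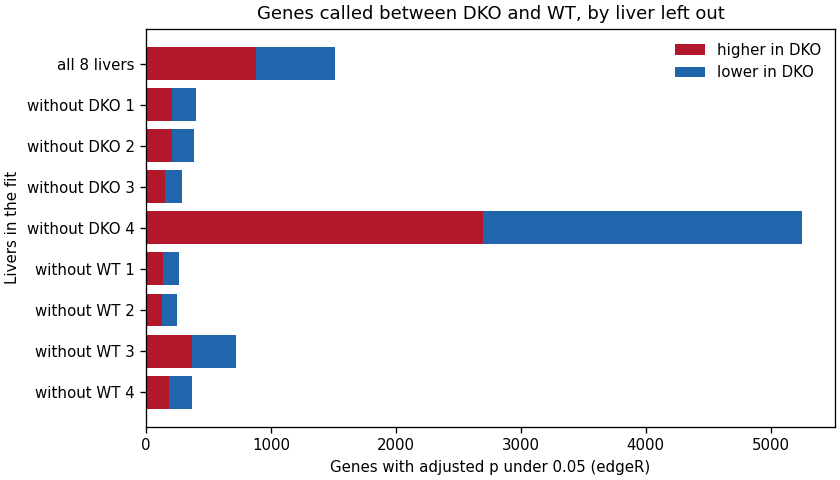
Horizontal bars give the number of genes called higher (red) and lower (blue) in DKO livers with all 8 livers and with each liver left out. The count is 5253 without DKO 4, 1510 with all livers and 244 to 719 without any other liver.

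The 10 largest rises shared by all 4 DKO livers were those of Pdk4, Gdf15, Fgf21, Ppp1r3g, Nupr1, Cgref1, Gpnmb, Nrg1, Adra2a and Tmem171. Pdk4, the kinase that shuts off pyruvate dehydrogenase and so spares glucose, had 842, 1013, 747 and 69.8 CPM in DKO 1 to 4 and 5.70 to 12.6 CPM in WT livers. Gdf15, a circulating stress hormone, had 95.4, 113, 93.2 and 31.4 CPM against 1.81 to 5.59 CPM. Fgf21 had 81.0, 147, 173 and 24.8 CPM against 1.43 to 5.66 CPM. DKO 4 was the lowest DKO liver for each of these genes and still lay above every WT liver. The log2 fold changes were 6.40 ± 0.77 for Pdk4, 4.81 ± 0.49 for Gdf15 and 5.06 ± 0.64 for Fgf21 (edgeR adjusted p = 0.00532, 0.00337 and 0.00603). Without DKO 4 they were 6.78 ± 0.27, 5.09 ± 0.30 and 5.39 ± 0.38. Ppp1r3g, a subunit that brings protein phosphatase 1 to glycogen, differed from them in that DKO 4 was not low, with 40.1, 65.1, 54.9 and 66.1 CPM against 1.04 to 4.07 CPM. Its log2 fold change was 4.81 ± 0.40 with DKO 4 and 4.71 ± 0.35 without it (edgeR adjusted p = 0.00148 and 4.11e-06).

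Nupr1 and Cgref1, whose promoters are printed above, followed the first pattern. Nupr1 had 18.7, 16.5, 30.8 and 1.44 CPM against 0.385 to 0.886 CPM in WT, and Cgref1 had 30.1, 51.2, 51.7 and 6.76 CPM against 1.32 to 2.66 CPM. The log2 fold change of Cgref1 was 4.25 ± 0.59 (edgeR adjusted p = 0.00793). No fold or test is given for Nupr1, since its WT livers other than WT 2 were under the filter on low counts. Gpnmb, a glycoprotein of lysosomes in stressed cells, had 12.5, 9.80, 23.0 and 0.586 CPM against 0 to 0.506 CPM, and Nrg1, a ligand of ErbB receptors, had 4.39, 4.41, 4.88 and 0.586 CPM against 0 to 0.468 CPM. DKO 4 was just above the highest WT liver for both genes. Adra2a, the α2A-adrenergic receptor, had 10.0, 47.1, 5.59 and 4.90 CPM, and Tmem171 had 3.04, 4.66, 3.35 and 0.639 CPM, against at most 0.127 and 0.0650 CPM in WT livers. These last 4 genes passed the filter on low counts only through the DKO livers, so that they had to differ, and their levels are given without a fold or test.

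**Figure D3:**
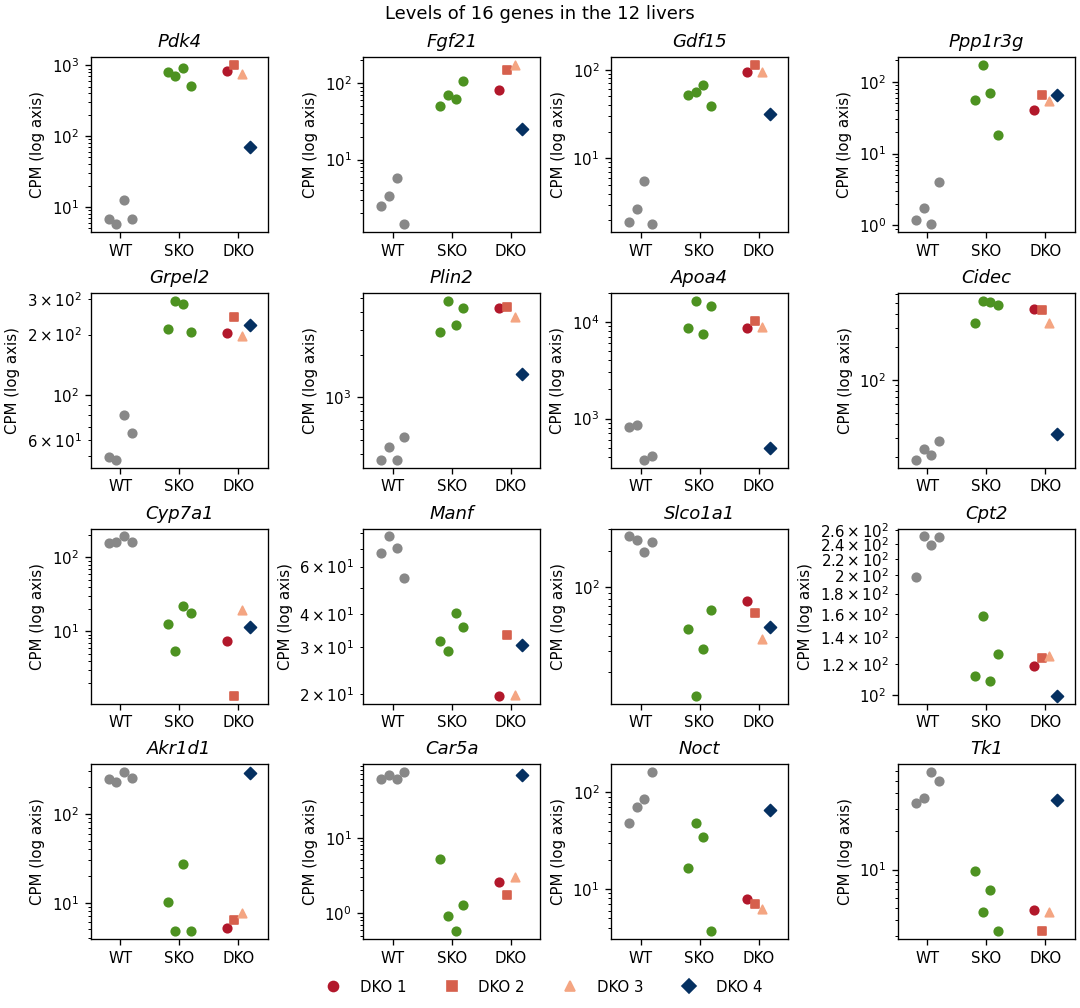
Each panel plots CPM on a log axis for 1 gene, with 4 WT livers (grey), 4 SKO livers (green) and the 4 DKO livers, each with its own marker and colour. Pdk4 has 69.8 CPM in DKO 4 and 747 to 1013 CPM in DKO 1 to 3, above WT in all 4, while Apoa4 and Akr1d1 in DKO 4 lie among the WT livers. For Pdk4 and Akr1d1 this is set by the choice of genes.

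Lipid droplet genes were among those that rose. Of 17 tested genes of lipid droplets and lipolysis, 8 were called higher and 0 lower with all DKO livers, and 11 higher and 1 lower without DKO 4, against a background of 6.06% and 4.39%, and 18.4% and 17.5% without DKO 4. The median log2 fold change of the list was 0.81 and 0.74, against 0.03 and 0.02 for all genes. By liver the list median was 0.70, 0.88 and 0.89 in DKO 1 to 3 and 0.07 in DKO 4, which lay within the WT range of -0.21 to 0.08. Plin2, the main coat protein of liver lipid droplets, had 4220.3, 4328, 3696 and 1462 CPM in DKO 1 to 4 and 364 to 524 CPM in WT livers. Cidec, which fuses droplets, had 441, 429, 331 and 32.3 CPM against 18.8 to 28.0 CPM. Hilpda, an inhibitor of the lipase ATGL, had 34.6, 37.3, 22.1 and 5.38 CPM against 1.63 to 2.50 CPM. None of the 3 overlapped between the groups, and DKO 4 was the nearest to WT each time. Their log2 fold changes were 3.02 ± 0.34, 3.76 ± 0.65 and 3.67 ± 0.53 (edgeR adjusted p = 0.00385, 0.0131 and 0.00892). Plin5, which ties droplets to mitochondria, overlapped, since DKO 4 had 136 CPM and WT 3 had 148 CPM, and its log2 fold change was 1.70 ± 0.36 (edgeR adjusted p = 0.0227).

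Acyl-CoA thioesterases, which split acyl-CoAs into free fatty acids and CoA, had 4 of 11 tested genes called higher and 0 lower, with a median of 0.83 (6 higher, 1 lower and 0.57 without DKO 4). The background was 6.06% higher and 4.39% lower, and 18.4% and 17.5% without DKO 4. Unlike the lipid droplet genes, the list as a whole was not lower in DKO 4: its median log2 difference from the WT mean was 0.44, 0.53, 0.76 and 0.57 in DKO 1 to 4, and -0.23 to 0.12 in the WT livers. The mitochondrial Acot2 had 151, 209.5, 154 and 41.7 CPM against 8.16 to 15.2 CPM, and its cytosolic neighbour Acot1 had 786, 1048, 896 and 267 CPM against 116 to 152 CPM. Both lay above WT in every DKO liver, at log2 fold changes of 3.60 ± 0.45 and 2.46 ± 0.36 (edgeR adjusted p = 0.00580 and 0.00892). These are near-identical copies on chromosome 12, and reads shared between them may have been split by the counting. Acot11 went the other way without DKO 4, at -1.65 ± 0.35 (edgeR adjusted p = 0.00386), and had 0.613 to 2.98 CPM in DKO and 3.71 to 5.06 CPM in WT livers.

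Of 22 genes of mitochondrial β-oxidation, 2 were called higher and 1 lower (8 and 4 without DKO 4), with a median of 0.24 (0.30). Over all genes 6.06% were called higher and 4.39% lower (18.4% and 17.5% without DKO 4), so that with all DKO livers these counts, and those of the peroxisomal genes, are small and nothing is read from them. Hsdl2, a dehydrogenase-like protein, rose by 0.81 ± 0.15 on the log2 scale from 107 to 128 CPM in WT to 168 to 264 CPM in DKO livers (edgeR adjusted p = 0.0162). Acadl, the long-chain acyl-CoA dehydrogenase, rose by 0.56 ± 0.15 (edgeR adjusted p = 0.0480), and Acadsb, which acts on branched short chains from isoleucine, fell by 0.83 on the log2 scale (edgeR adjusted p = 0.0442). Of 28 peroxisomal genes, 3 were called higher and 3 lower (12 and 6 without DKO 4). Pex11a, which divides peroxisomes, had 685, 610.0, 587 and 341 CPM against 141 to 221 CPM, and Crat, carnitine acetyltransferase, had 232, 282, 224 and 166 CPM against 105 to 118 CPM. Neither overlapped, at log2 fold changes of 1.64 ± 0.24 and 1.02 ± 0.16 (edgeR adjusted p = 0.00892 and 0.00948). Acaa1b, the peroxisomal thiolase, was raised in DKO 1 to 3, at 4697 to 5608 CPM, and lay inside the WT range of 1292 to 2051 CPM in DKO 4, at 1674 CPM.

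Cyp4a14, a fatty acid ω-hydroxylase and a well-known PPARα target, was high in every liver. It had 13529, 15005 and 11100.0 CPM in DKO 1 to 3, 5229.8 CPM in DKO 4 and 6828 to 8304 CPM in WT livers. It was called without DKO 4 (0.77 ± 0.13, edgeR adjusted p = 0.00110) and not with it. Of the 14 genes of fatty acid uptake, 4 were called higher and 1 lower (6 and 3 without DKO 4), against 6.06% and 4.39% (18.4% and 17.5%) of all genes. The fatty acid transporter Cd36 had 95.2, 169, 169 and 149 CPM against 27.8 to 47.7 CPM and the lipoprotein receptor Vldlr had 10.7, 9.19, 12.9 and 21.8 CPM against 2.40 to 5.88 CPM. DKO 4 lay within the range of the other DKO livers for Cd36 and above it for Vldlr, at log2 fold changes of 1.94 ± 0.22 and 1.86 ± 0.35 (edgeR adjusted p = 0.00476 and 0.0174). Fabp4, a fatty acid carrier of adipocytes and macrophages, overlapped at 8.15 CPM in DKO 4 and 9.67 CPM in WT 1 (1.30 ± 0.32, edgeR adjusted p = 0.0366).

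Ketone body synthesis held 2 called genes of 7, both higher (2 higher and 2 lower without DKO 4). Slc16a1, a monocarboxylate transporter that moves ketone bodies and lactate, had 94.0, 138, 79.8 and 73.6 CPM against 32.9 to 43.9 CPM (1.27 ± 0.20, edgeR adjusted p = 0.00973). Of 21 genes of de novo lipogenesis, 4 were called higher and 3 lower (4 and 8 without DKO 4), where 6.06% of all genes were called higher and 4.39% lower (18.4% and 17.5%). Acacb, whose product malonyl-CoA inhibits Cpt1a, had 244, 222, 182 and 112 CPM against 45.5 to 59.9 CPM, and Acly, ATP citrate lyase, had 56.1, 61.5, 41.0 and 92.8 CPM against 112 to 147 CPM. They moved apart without overlap, at 1.83 ± 0.23 and -1.04 ± 0.23 (edgeR adjusted p = 0.00577 and 0.0259). Mid1ip1, which promotes acetyl-CoA carboxylase assembly, fell by 1.65 on the log2 scale (edgeR adjusted p = 0.0139), from 17.6 to 25.7 CPM to 4.17 to 10.5 CPM.

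Apoa4, a lipid transport protein and the gene that the study is about, had 8627, 10130.0 and 8842 CPM in DKO 1 to 3 and 498 CPM in DKO 4. The WT livers had 373 to 864 CPM and the SKO livers 7545 to 16634 CPM. DKO 4 was within the WT range and the other DKO livers overlapped with SKO. The log2 fold change against WT was 3.52 ± 0.76 with DKO 4 (edgeR adjusted p = 0.0244) and 3.90 ± 0.30 without it (edgeR adjusted p = 4.82e-06). The direct difference of DKO 1 to 3 from SKO was -0.36 (95% interval -0.96 to 0.25, edgeR adjusted p = 0.898). Of 17 apolipoproteins tested, 1 was called higher and 1 lower with all livers, and 2 and 10 without DKO 4. Over all genes the shares were 6.06% and 4.39%, and 18.4% and 17.5% without DKO 4, so that nothing is read from the counts with all livers.

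In the integrated stress response, eIF2α kinases raise ATF4 and its targets for amino acid supply. Of 26 genes tested, 7 were called higher and 0 lower, with a median of 0.62, and without DKO 4 these were 17 and 2 of 27 with a median of 0.83. The background was 6.06% and 4.39%, and 18.4% and 17.5% without DKO 4. The list median in single livers was 0.66, 0.84 and 0.75 in DKO 1 to 3, 0.02 in DKO 4 and -0.18 to 0.09 in WT livers, so that DKO 4 fell among the controls. Slc3a2, the heavy chain of amino acid exchangers, had 105, 119, 99.5 and 43.2 CPM against 30.9 to 36.8 CPM, and Chac1, which degrades glutathione, had 4.10, 7.11, 7.98 and 2.77 CPM against 1.04 to 2.15 CPM. DKO 4 was above WT in both, by less than the other DKO livers (1.42 ± 0.26 and 1.82 ± 0.39, edgeR adjusted p = 0.0163 and 0.0244). Mthfd2, of mitochondrial folate metabolism, had 5.21, 6.92, 7.27 and 1.28 CPM against 0.253 to 1.35 CPM, and overlapped through DKO 4. Its log2 fold change was 2.48 ± 0.58 with DKO 4 and 2.79 ± 0.38 without it (edgeR adjusted p = 0.0307 and 0.00024).

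Of 21 cytosolic aminoacyl-tRNA synthetases, which ATF4 also drives, 2 were called higher with all livers and 12 without DKO 4, and 0 were lower either way. Over all genes 6.06% were called higher with all livers and 18.4% without DKO 4, and nothing is read from the first count. Sars, the seryl-tRNA synthetase, had 97.9, 109, 93.8 and 51.3 CPM against 44.0 to 52.4 CPM (0.92 ± 0.21, edgeR adjusted p = 0.0260). Among 23 ATF, CREB and AP-1 factors, 3 were called higher and 0 lower (11 and 1 of 25 without DKO 4). Atf5, a relative of ATF4 tied to mitochondrial stress, had 678, 1104, 927 and 461 CPM against 330.4 to 428 CPM, and rose by 1.04 ± 0.25 on the log2 scale (edgeR adjusted p = 0.0317). Creb5 had 7.57, 4.84 and 4.73 CPM in DKO 1 to 3, 0.266 CPM in DKO 4 and 0 to 0.364 CPM in WT livers, and passed the filter only through DKO 1 to 3, so that no test is given. Igfbp1, an IGF-binding protein of the fasted liver, had 715, 1309, 643 and 203 CPM against 112 to 188 CPM, at 2.28 ± 0.45 (edgeR adjusted p = 0.0198).

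Of 20 mitochondrial chaperones and proteases, 3 were called higher and 0 lower (8 and 0 without DKO 4), beside 6.06% and 18.4% higher over all genes. Grpel2, a nucleotide exchange factor of the mitochondrial Hsp70, had 203, 245, 196 and 224 CPM against 47.9 to 79.5 CPM, with DKO 4 inside the range of the other DKO livers. Its log2 fold change was 1.86 ± 0.18 with DKO 4 and 1.83 ± 0.17 without it (edgeR adjusted p = 0.00328 and 1.96e-05). Clpx, which unfolds proteins for the ClpP protease, had 246, 363, 149 and 147 CPM against 90.0 to 126 CPM, and 72.4 to 135 CPM in SKO livers. It rose against WT (1.11 ± 0.28, edgeR adjusted p = 0.0384), while in SKO livers it was not called against WT (-0.20 ± 0.20, edgeR adjusted p = 0.498). The direct difference of DKO from SKO was 1.31 (95% interval 0.62 to 2.00, edgeR adjusted p = 0.396). Phb, a ring protein of the inner membrane, rose by 0.66 ± 0.16 (edgeR adjusted p = 0.0319), from 110.5 to 128 CPM to 140.2 to 225 CPM. Of the 43 nuclear genes of oxidative phosphorylation 0 were called by edgeR with all DKO livers, and their list median was -0.10 to 0.12 in the 4 DKO livers.

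Of 36 lysosomal genes linked to TFEB, 7 were called higher and 0 lower (15 and 7 without DKO 4), against 6.06% and 4.39% (18.4% and 17.5%) over all genes, and the list median in DKO 1 to 4 was 0.19, 0.27, 0.08 and 0.25 against -0.02 to 0.03 in WT livers. Flcn, folliculin, a regulator of TFEB, had 95.1, 89.4, 90.7 and 94.7 CPM against 36.1 to 46.8 CPM, and the protease Ctsz had 365, 398, 374 and 314 CPM against 181 to 227 CPM. Flcn was thus nearly level over the 4 DKO livers, at 1.13 ± 0.12, and Ctsz was at 0.90 ± 0.13 (edgeR adjusted p = 0.00337 and 0.00894). Sqstm1, the autophagy receptor p62, was at 1428 to 1775 CPM in DKO 1 to 3 and at 377 CPM in DKO 4, below the WT range of 401 to 461 CPM.

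Of 22 p53 targets and growth arrest genes, 5 were called higher and 0 lower (12 and 2 without DKO 4), and the background was 6.06% and 4.39% (18.4% and 17.5%). Gadd45b, which is induced by stress, had 9.89, 27.3, 15.5 and 13.8 CPM against 2.21 to 7.15 CPM and rose by 2.10 ± 0.41 (edgeR adjusted p = 0.0187). Cdkn1a, the cell cycle inhibitor p21, had 133, 159, 71.7 and 8.84 CPM against 5.44 to 25.9 CPM and was called without DKO 4 (2.99 ± 0.40, edgeR adjusted p = 0.000214). Of 33 glutathione transferases and NRF2 targets, 7 were called higher and 0 lower (14 and 9 of 34 without DKO 4). Srxn1, which repairs peroxiredoxins, had 539.6, 618 and 463 CPM in DKO 1 to 3, 49.5 CPM in DKO 4 and 50.9 to 61.6 CPM in WT livers. Hmox1, heme oxygenase, had 309.5, 93.8, 148 and 25.3 CPM against 11.2 to 22.7 CPM. DKO 4 was below WT for the first gene and just above it for the second, and both were called (2.89 ± 0.60 and 3.11 ± 0.63, edgeR adjusted p = 0.0209 and 0.0200). Gstm4 had 61.3, 87.4, 74.0 and 78.2 CPM against 38.7 to 42.3 CPM and rose by 0.90 ± 0.12 (edgeR adjusted p = 0.00717), with 38.7 to 55.4 CPM in SKO livers. Its direct difference from SKO was 0.70 (95% interval 0.33 to 1.07, edgeR adjusted p = 0.396).

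Of 21 fasting and stress hepatokines, 5 were called higher and 1 lower (5 and 7 without DKO 4), where over all genes 6.06% were called higher and 4.39% lower (18.4% and 17.5%). Orm2, an acute-phase glycoprotein, had 51.5, 28.6, 49.4 and 13.3 CPM against 5.01 to 5.98 CPM and rose by 2.74 ± 0.38 (edgeR adjusted p = 0.00825). Angptl8, an inhibitor of lipoprotein lipase that feeding induces, had 2.65, 4.72, 9.30 and 8.84 CPM against 12.6 to 21.1 CPM and fell by 1.42 on the log2 scale (edgeR adjusted p = 0.0399).

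Falls shared by all 4 DKO livers included genes of protein folding in the endoplasmic reticulum, of the clock and of bile acid synthesis. Of 24 ER chaperones and unfolded protein response genes, 1 was called higher and 10 lower (1 and 18 without DKO 4), where 4.39% of all genes were lower (17.5% without DKO 4), with a median of -0.78 (-0.98). The list median was -1.01, -0.55, -1.30 and -0.32 in DKO 1 to 4 and -0.12 to 0.12 in WT livers. Manf, a secreted ER stress protein, had 19.8, 33.3, 19.8 and 30.6 CPM against 54.4 to 77.8 CPM, and Hyou1, an ER chaperone of the Hsp70 family, had 73.5, 86.2, 48.6 and 56.8 CPM against 119 to 159 CPM. Dnajb11, a co-chaperone of BiP, had 40.8, 45.3, 41.9 and 59.6 CPM against 81.3 to 96.9 CPM. No DKO liver reached a WT liver in these genes, at log2 fold changes of -1.38 ± 0.20, -1.07 ± 0.19 and -0.89 ± 0.14 (edgeR adjusted p = 0.00883, 0.0133 and 0.0109). Derl3, of ER-associated degradation, had 0.184 to 0.373 CPM in DKO livers and 1.04 to 4.30 CPM in WT livers, and passed the filter on low counts only through WT livers, so that no test is given.

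Of 18 clock genes, 0 were called higher and 7 lower (1 and 12 without DKO 4), against 4.39% and 17.5% lower over all genes, with list medians of -0.63, -0.94, -0.89 and -0.56 in DKO 1 to 4 and -0.21 to 0.11 in WT livers. The study's methods give the same afternoon hour for the end of the fast in all mice, the labels give no time per liver, and the part of collection time was not tested. Ciart, a repressor of the clock, had 6.08, 3.92, 2.69 and 18.1 CPM against 38.8 to 76.7 CPM, and Usp2, a rhythmic deubiquitinase, had 7.48, 3.80, 6.66 and 38.1 CPM against 77.6 to 132 CPM. DKO 4 lay between the other DKO livers and WT for both genes (-2.67 ± 0.55 and -2.76 ± 0.65, edgeR adjusted p = 0.0206 and 0.0315). Per2 and Hlf, a core repressor and an output factor, fell by 1.33 and 1.39 on the log2 scale (edgeR adjusted p = 0.0244 and 0.0198). Nampt, the rate-limiting enzyme of NAD salvage and a known clock target, had 54.8, 50.4, 50.6 and 66.5 CPM against 92.9 to 139 CPM. It fell by 1.00 on the log2 scale (edgeR adjusted p = 0.0110), among 0 higher and 3 lower of 20 genes of NAD synthesis (1 and 12 without DKO 4).

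Of 12 mitochondrially encoded genes of oxidative phosphorylation tested, 1 was called higher and 3 lower (1 and 5 without DKO 4), beside 4.39% and 17.5% lower in the background. Their list median was -0.41, -0.42, -0.34 and -0.42 in DKO 1 to 4 and -0.10 to 0.15 in WT livers, so that all DKO livers lay below all WT livers. mt-Nd5, a subunit of complex I, had 3325, 3280.4, 1894 and 2725 CPM against 5066 to 6458 CPM (-0.98 ± 0.22, edgeR adjusted p = 0.0255).

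Cyp7a1, the rate-limiting enzyme of bile acid synthesis, had 7.43, 1.35, 19.4 and 11.6 CPM in DKO 1 to 4 and 156 to 192 CPM in WT livers. It was among the 10 largest falls, at -4.05 ± 0.61 with DKO 4 and -4.13 ± 0.59 without it (edgeR adjusted p = 0.00896 and 0.000323). Cyp7b1, of the alternative pathway, had 78.9, 42.5, 31.6 and 29.7 CPM against 112 to 175 CPM, and the uptake carrier Slco1a1 had 76.8, 61.7, 37.6 and 47.6 CPM against 196 to 261 CPM. Both were without overlap, at -1.66 ± 0.31 and -2.05 ± 0.22 (edgeR adjusted p = 0.0159 and 0.00337), and DKO 4 was the farthest from WT for Cyp7b1 and lay between DKO 2 and DKO 3 for Slco1a1. Of 19 genes of bile acid synthesis and transport, 0 were called higher and 5 lower (1 and 12 without DKO 4), against 4.39% (17.5%) lower over all genes. The list as a whole was not low in DKO 4, with medians of -0.81, -0.97 and -1.03 in DKO 1 to 3, -0.05 in DKO 4 and -0.08 to 0.05 in WT livers.

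The other large falls were named by a rule that asked for a call with and without DKO 4 and no overlap between the groups, so that a low level in every DKO liver is set by the choice. The same holds for the 10 largest rises. Gm3839 had 3.13, 1.16, 1.73 and 2.56 CPM against 19.3 to 23.2 CPM (-3.31 ± 0.27, edgeR adjusted p = 0.00148). Hsd3b2, a steroid dehydrogenase, had 2.70, 0.735, 3.10 and 14.5 CPM against 47.7 to 49.8 CPM (-3.18 ± 0.67, edgeR adjusted p = 0.0221). S1pr5, a receptor for sphingosine 1-phosphate, had 0.0965, 0.123, 0.407 and 1.70 CPM against 5.25 to 6.18 CPM, and no test is given, since DKO 1 to 3 were under the filter on low counts. In both Hsd3b2 and S1pr5, DKO 4 was the highest DKO liver and lay below every WT liver. Map2k6 had 0.429 to 4.05 CPM against 9.56 to 20.1 CPM and the lipocalin Obp2a had 0 to 0.820 CPM against 3.64 to 12.5 CPM (-3.15 ± 0.60 and -4.50 ± 0.72, edgeR adjusted p = 0.0177 and 0.0102). The X-linked Xlr3a, at 0.123 to 2.13 CPM against 4.16 to 11.3 CPM, was also called (edgeR adjusted p = 0.0238). Fam83f had 0.0613 to 0.289 CPM against 0.650 to 3.79 CPM and passed the filter only through WT livers, so that no test is given. Mup8, a major urinary protein, was called lower (edgeR adjusted p = 0.0443) with 0.102 to 0.868 CPM in DKO livers, but its fold rests on WT 2, which had 1461 CPM where the other WT livers had 2.41 to 3.74 CPM. Without WT 2 the log2 fold change was -2.69 in place of -9.56 and missed the threshold, and that of DKO 1 to 3 was -2.87 in place of -9.73, and reads may be shared between Mup copies.

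**Figure D4:**
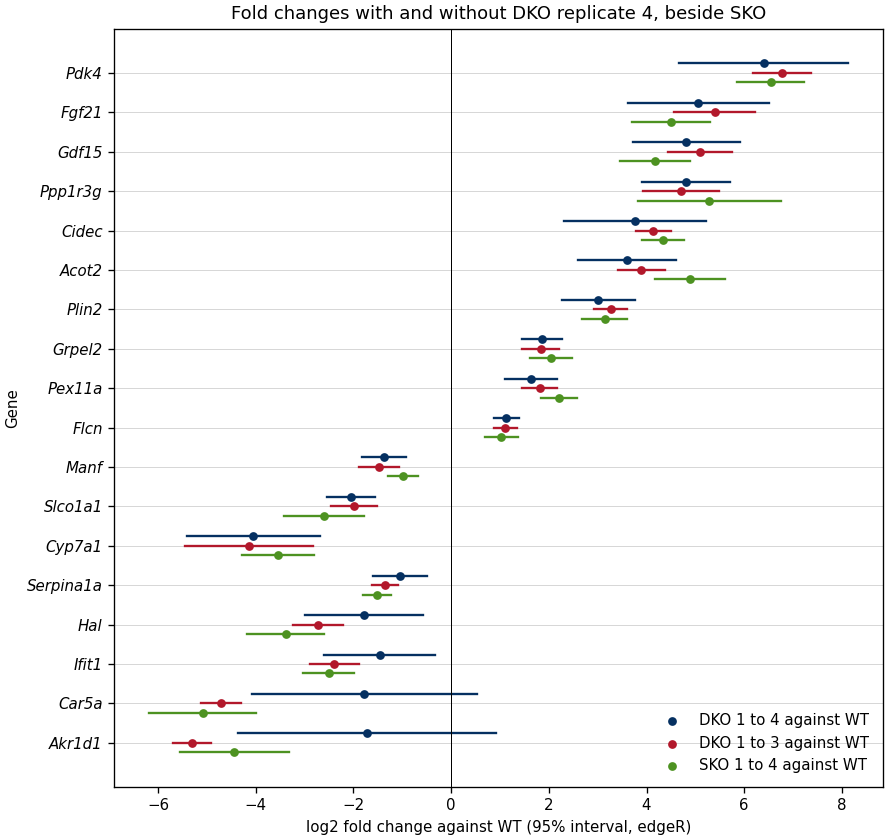
Points are log2 fold changes against WT from edgeR and lines their 95% intervals, for 4 DKO livers (blue), DKO 1 to 3 (red) and 4 SKO livers (green). For Ppp1r3g, Grpel2, Flcn, Manf, Slco1a1 and Cyp7a1 the values with and without DKO 4 lie close together. Akr1d1 and Car5a were picked because DKO 4 lay within the WT range, so that the gap between their values is set by the choice and is not read.

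Other genes were picked because they were called without DKO 4, not called with it, and lay within the WT range in DKO 4, so that their pattern is set by the choice and is described without a test. Akr1d1, the steroid 5β-reductase of bile acid synthesis, had 5.26, 6.37 and 7.62 CPM in DKO 1 to 3, 285 CPM in DKO 4 and 230.4 to 294 CPM in WT livers. Car5a, the mitochondrial carbonic anhydrase that feeds urea and glucose synthesis, had 2.56, 1.72 and 3.05 CPM, then 67.4 CPM, against 59.3 to 73.8 CPM. Tk1, thymidine kinase, had 3.25 to 4.77 CPM in DKO 1 to 3, 35.4 CPM in DKO 4 and 33.4 to 58.8 CPM in WT livers. Noct, a rhythmic phosphatase, had 6.15 to 7.96 CPM, 66.0 CPM and 48.0 to 162 CPM in the same order. Nr0b2, the bile acid-induced repressor SHP, had 0.193 to 4.84 CPM, 26.2 CPM and 19.5 to 39.5 CPM, and Cyp26a1, which clears retinoic acid, had 0 to 0.152 CPM, 3.99 CPM and 3.80 to 5.98 CPM.

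Genes picked in the same way for a rise included some that were near 0 in WT livers. Tubb2b, a β-tubulin, had 19.1, 12.1 and 26.5 CPM in DKO 1 to 3, 0.0532 CPM in DKO 4 and 0 to 0.190 CPM in WT livers. Fabp3, the fatty acid-binding protein of heart, had 4.82, 13.5 and 10.3 CPM, then 0.160 CPM, against 0.0520 to 0.220 CPM. Ephb2, an ephrin receptor, had 10.5, 8.03 and 6.91 CPM, then 0, against 0 to 0.260 CPM. These 3 genes passed the filter on low counts only through DKO 1 to 3 and did not pass it in the fit with DKO 4, so that no fold or test is given. Ly6d, a cell surface protein, had 9.12 to 31.1 CPM in DKO 1 to 3, 2.24 CPM in DKO 4 and 0.650 to 5.88 CPM in WT livers. Elovl7, a fatty acid elongase that was fixed as a gene of the study and not picked in this way, had 8.27 to 13.7 CPM, 0.692 CPM and 0.127 to 0.780 CPM, and was called with and without DKO 4 (4.33 ± 0.84 and 4.72 ± 0.41, edgeR adjusted p = 0.0184 and 1.26e-05).

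Lists of hepatocyte functions had many genes called lower without DKO 4. Of 53 secreted plasma proteins, 0 were called higher and 49 lower, against 17.5% lower over all genes, and 7 were lower with all DKO livers. The list median was -0.75, -0.91 and -1.26 in DKO 1 to 3, -0.04 in DKO 4 and -0.19 to 0.08 in WT livers. Serpina1a, an α1-antitrypsin of a family of near-identical copies, had 901, 731 and 811 CPM, then 1579 CPM, against 2071 to 2118 CPM, and was called with and without DKO 4 (-1.04 ± 0.25 and -1.36 ± 0.12, edgeR adjusted p = 0.0315 and 1.20e-05). The complement genes C8b and C9 differed in that DKO 4 was low as well, with 155, 120.5, 85.5 and 104 CPM against 210.3 to 289 CPM, and with 182, 171, 92.8 and 104 CPM against 283 to 423 CPM. They fell by 1.09 and 1.29 on the log2 scale with all livers (edgeR adjusted p = 0.0136 and 0.0178).

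Of 42 genes of the urea cycle and amino acid breakdown, 0 were called higher and 33 lower without DKO 4, and 3 were lower with it, against 17.5% and 4.39% of all genes. Bhmt, which remethylates homocysteine, had 2972, 1829.6, 3492 and 2673 CPM against 5280.5 to 7827 CPM and 367 to 1299 CPM in SKO livers. All 4 DKO livers lay between the WT and the SKO livers, at -1.30 ± 0.24 against WT (edgeR adjusted p = 0.0166), and the direct difference from SKO was 1.78 (95% interval 0.95 to 2.61, edgeR adjusted p = 0.314). Hal, histidine ammonia-lyase, had 116, 142 and 121 CPM, then 579.9 CPM, against 533 to 1106 CPM. Gnmt, glycine N-methyltransferase, had 774, 562 and 666 CPM, then 1727 CPM, against 1859 to 2113 CPM. Both were called without DKO 4 (-2.73 ± 0.23 and -1.56 ± 0.14, edgeR adjusted p = 9.39e-06 and 1.32e-05).

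Of 33 cytochrome P450 genes of families 1 to 3, the enzymes of drug and steroid clearance, 0 were called higher and 28 lower without DKO 4, and 4 were lower with it, beside 17.5% and 4.39% over all genes. The list median was -1.22, -1.24 and -1.44 in DKO 1 to 3 and 0.17 in DKO 4, above the WT range of -0.13 to 0.14. Cyp2f2, a periportal enzyme, fell with all livers, from 697 to 805 CPM to 161, 154, 216 and 362 CPM (-1.70 ± 0.27, edgeR adjusted p = 0.0104). Cyp3a11 had 714, 569 and 732 CPM, then 2569 CPM, against 2434 to 3407 CPM, and was called without DKO 4 (-2.12 ± 0.17, edgeR adjusted p = 6.07e-06). Of 22 genes of gluconeogenesis and glycolysis, 2 were called higher and 1 lower (5 and 8 without DKO 4), and nothing is read from these counts, with 6.06% and 4.39% (18.4% and 17.5%) of all genes called. Fbp1, of gluconeogenesis, had 342, 411 and 362 CPM, then 1019.6 CPM, against 1170.1 to 1312 CPM, and the glucose transporter Slc2a2 had 84.3, 114 and 128 CPM, then 359 CPM, against 399 to 484 CPM. Both fell without DKO 4, by 1.72 and 2.00 on the log2 scale (edgeR adjusted p = 1.78e-06 and 5.05e-06), and Pck1 fell by 0.92 (edgeR adjusted p = 0.00116).

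In cholesterol synthesis DKO 4 moved against the other DKO livers. Of 24 genes tested, 0 were called higher and 15 lower without DKO 4, where 17.5% of all genes were lower, and with it edgeR called 0 (1 at an unadjusted p under 0.05). The list median was -0.83, -1.25 and -0.99 in DKO 1 to 3 and 0.89 in DKO 4, where 21 of the 24 genes lay above all 4 WT livers, whose medians were -0.41 to 0.31.

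Type I interferon response genes act in antiviral defense. Of 36 genes tested, 1 was called higher and 29 lower without DKO 4, where 17.5% of all genes were lower, and 1 and 3 with it. The list median was -1.37, -1.16 and -1.02 in DKO 1 to 3, 0.36 in DKO 4 and -0.26 to 0.22 in WT livers. Ifit1 had 2.80, 2.45 and 2.03 CPM, then 11.0 CPM, against 9.89 to 15.2 CPM. Ddx58, the RNA sensor RIG-I, had 10.5, 14.2 and 12.7 CPM, then 24.5 CPM, against 30.7 to 44.8 CPM, and was called with all livers (-1.25 ± 0.26, edgeR adjusted p = 0.0214).

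**Figure D5:**
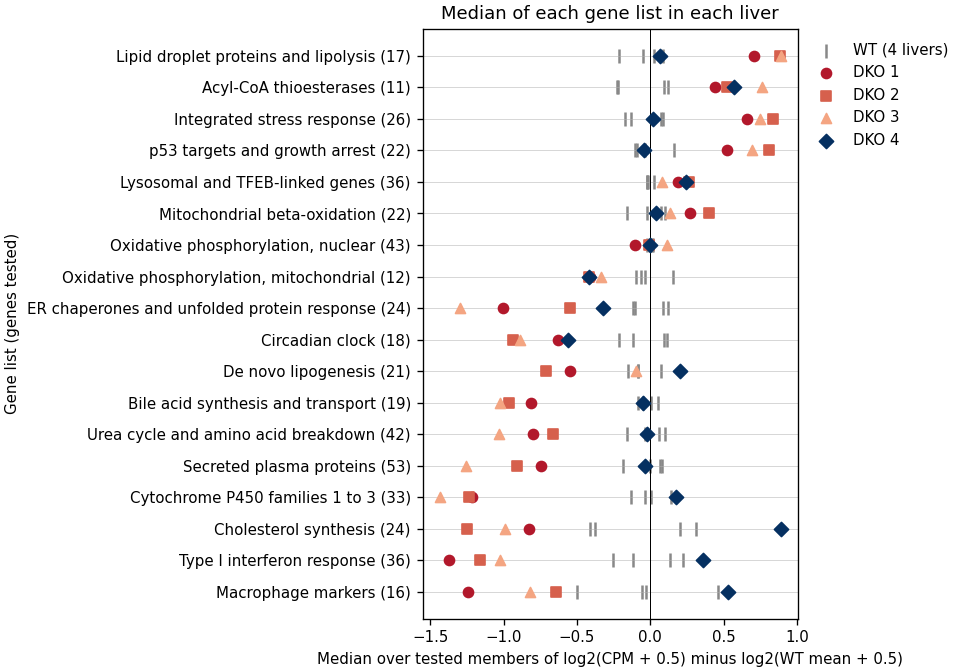
Points are the median over each list's tested genes of the log2 difference of a liver from the WT mean, computed on CPM + 0.5, for DKO 1 to 4 (markers) and the 4 WT livers (ticks). DKO 1 to 3 lie at -0.83 to -1.25 for cholesterol synthesis with DKO 4 at 0.89, while all 4 DKO livers lie at -0.34 to -0.42 for the mitochondrially encoded genes.

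Genes that differ between the sexes set DKO 4 apart. The list median of 20 male-biased liver genes was -0.24, -0.91 and -0.92 in DKO 1 to 3, -2.74 in DKO 4 and -0.23 to 0.14 in WT livers. SKO 3 had -2.92, and SKO 1, 2 and 4 had -0.87, -1.80 and -0.71. The median of 15 female-biased genes was -0.35 to 0.18 in DKO 1 to 3, 2.12 in DKO 4 and -0.17 to 0.30 in WT livers. It was 0.99 in SKO 3 and -0.74 to 0.03 in the other SKO livers. Cyp2a4 had 426 CPM in DKO 4 and at most 2.53 CPM in the other DKO and the WT livers, and Cyp2c69 had 659 CPM against at most 11.6 CPM. These genes of families of close copies mark DKO 4 and make the sign of their fold change depend on it, at 6.57 with and -0.92 without DKO 4 for Cyp2a4 and 4.78 and -3.21 for Cyp2c69. Of the male-biased genes 0 were called higher and 5 lower with all livers, and 2 and 9 without DKO 4. Susd4 had 9.89, 4.59, 4.47 and 1.65 CPM against 23.1 to 51.9 CPM, and was called lower with DKO 4 and without it (-2.83 ± 0.48 and -2.53 ± 0.37, edgeR adjusted p = 0.0121 and 0.000329). Of 20 Mup genes, which growth hormone pulses sustain in males, 0 were called higher and 5 lower (12 lower without DKO 4), against 4.39% (17.5%) of all genes, and their list median was -0.74, -2.04, -2.50 and -5.21 in DKO 1 to 4. Mup3 had 4708, 3547, 3396 and 1935 CPM against 5856 to 7512 CPM, lower in each DKO liver (-1.03 ± 0.26, edgeR adjusted p = 0.0385).

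Markers of the cell types of the liver were read over whole lists. Of 16 macrophage markers tested, 1 was called higher and 1 lower with all livers, and 2 and 11 without DKO 4, where 6.06% and 4.39%, and 18.4% and 17.5%, of all genes were called. Their summed level was 211, 314 and 295 CPM in DKO 1 to 3, 686 CPM in DKO 4 and 335 to 654 CPM in WT livers, so that 3 DKO livers lay below and 1 above the controls. Marco, Cd5l, Cd163 and Timd4, which resident macrophages (Kupffer cells) carry, fell without DKO 4, by 2.49, 1.13, 1.00 and 1.50 on the log2 scale (edgeR adjusted p = 0.000317, 0.00750, 0.00491 and 0.00871). Marco was the marker called lower with DKO 4 as well (-1.95 ± 0.45, edgeR adjusted p = 0.0288). Cd68, of macrophage lysosomes, had 21.2, 11.6, 25.0 and 9.48 CPM against 5.66 to 11.1 CPM and was called higher without DKO 4 (1.28 ± 0.29, edgeR adjusted p = 0.00527). Cd9, a membrane protein on this list, rose with all livers, from 8.97 to 11.2 CPM to 16.2 to 25.1 CPM (edgeR adjusted p = 0.00826). The interferon genes and the macrophage markers were thus low in the same 3 livers, and whether their changes share a source was not tested.

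Of 12 hepatocyte markers, 0 were called higher and 1 lower (8 lower without DKO 4), beside 4.39% and 17.5% lower over all genes. Of 13 stellate cell and fibroblast markers and 12 endothelial markers, edgeR called 0 with all livers, and without DKO 4 it called 2 higher and 1 lower of 14 and 0 of 12. Of 6 cholangiocyte markers 1 was called lower, Sox9, a factor of bile duct cells, which had 2.27, 1.10, 1.37 and 0.799 CPM against 3.57 to 5.61 CPM (-1.71 ± 0.34, edgeR adjusted p = 0.0195). Lymphocyte, neutrophil, erythroid and exocrine pancreas lists had 4, 1, 5 and 1 tested genes, with 0, 0, 1 and 0 called. Of 22 cell cycle genes 2 were called lower, among them Birc5, survivin, with 0.152 to 0.745 CPM against 1.50 to 2.53 CPM, and no test is given, since DKO 1 to 3 were under the filter on low counts.

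The SKO livers share the WT livers with this comparison, so that only values side by side are given. Of 14261 genes tested between SKO and WT, 4576 (32.1%) were called, 2378 higher (16.7%) and 2198 lower (15.4%). For Pdk4 the log2 fold change was 6.54 ± 0.31 in SKO and 6.78 ± 0.27 in DKO 1 to 3, for Plin2 3.15 ± 0.21 and 3.26 ± 0.15, and for Cyp7a1 -3.54 ± 0.34 and -4.13 ± 0.59. The direct test of DKO against SKO called 3 of 14363 genes (0.0209%) with DKO 4, namely H2-T-ps, Lars2 and Bmper, named here only once their values were known, and 932 genes had an unadjusted p under 0.05. Without DKO 4 it called 15 of 14589 (0.103%), 9 higher and 6 lower, with 1054 at an unadjusted p under 0.05. Among the genes described above these included Usp2 and Elovl7. Usp2 had 16.2 to 55.8 CPM in SKO livers, above DKO 1 to 3, at a difference of -2.83 ± 0.41 (edgeR adjusted p = 0.0320), and Elovl7 had 26.6 to 38.1 CPM, also above them, at -1.67 ± 0.22 (edgeR adjusted p = 0.0152).

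Apobr, a receptor for apolipoprotein B, and Mmp27, a matrix metalloproteinase, were called in SKO against WT and not in DKO against WT, with or without DKO 4. Apobr had 2.36, 1.84, 3.51 and 1.97 CPM in DKO 1 to 4, 1.26 to 2.81 CPM in WT and 6.60 to 11.3 CPM in SKO livers, and Mmp27 had 1.50, 0.735, 1.02 and 0.905 CPM, 0.585 to 0.832 CPM and 2.13 to 10.1 CPM. For both genes DKO livers overlapped with WT and not with SKO livers. The direct differences of 4 DKO from 4 SKO livers were -1.71 ± 0.28 and -2.61 ± 0.47, and they did not pass the test over all genes (edgeR adjusted p = 0.167 and 0.182).

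For genes that were not called in the direct test the intervals were often wide. The difference of DKO 1 to 3 from SKO was 0.23 (95% interval -0.24 to 0.71) for Pdk4, 0.89 (0.28 to 1.50) for Fgf21, 0.91 (0.50 to 1.31) for Gdf15 and -0.99 (-1.62 to -0.37) for Acot2, with edgeR adjusted p-values of 0.925, 0.444, 0.137 and 0.376. It was 0.12 (-0.35 to 0.58) for Plin2, -0.20 (-0.64 to 0.24) for Cidec, -0.21 (-0.60 to 0.18) for Grpel2 and -0.60 (-2.02 to 0.82) for Cyp7a1, with edgeR adjusted p-values of 0.972, 0.928, 0.915 and 0.935. A miss of the threshold does not show that levels were equal.

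Genes next to the targeted loci were counted as a check of the floxed chromosomes. Within 5 Mb of Atf3, 5 of 48 tested genes were called higher and 2 lower in DKO against WT livers (14.58%), and 36% were called without DKO 4. Around Cpt2, Cpt1a and Cpt1b the shares were 13.79%, 8.917% and 14.29% with all livers and 38.98%, 35.62% and 38.1% without DKO 4, against 10.5% and 35.9% over all genes. In the direct test of DKO 1 to 3 against SKO, 2 of 52 genes around Atf3 were called, both higher, and 0 of 56, 158 and 63 by edgeR around Cpt2, Cpt1a and Cpt1b. The share around Atf3 was 3.846%, against 0.103% over all genes in this test, and its source was not tested.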

How the data were processed

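RNA was extracted from whole liver with TRIzol and RNeasy columns and sequenced in libraries made by Novogene. For 56748 Ensembl genes in 12 livers the authors deposited unnormalized counts, which sum to 14710304 to 20030055 per liver. The submitters' notes name HISAT2 and GRCm38 (mm10), while the gene coordinates in the table are those of GRCm39. They are printed as the table gives them, and the counting program is not given in the sources used here. Deposited FPKM values and the authors' comparison tables, which hold log2 fold changes, p-values and adjusted p-values, were not used. No per-sample column of counts was left unused.

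Counts were fitted with edgeR 4.0.16 (TMM scaling, filterByExpr, two-sided quasi-likelihood F-test, Benjamini-Hochberg adjustment) in R 4.3.3, with only the livers of a comparison in its fit. SEs were derived from the log2 fold change and the F statistic of each gene. The 95% intervals were built from these SEs and the t distribution. P-values measure only the spread between these livers. Where a group was at 0, a limit of 3 counts was used, and it covers counting error only. Per-liver list medians used log2 of CPM plus 0.5. DESeq2 1.42.0, other scalings and filters, a replicate block, fits over all livers and leaving out each liver were tried as alternatives. Figures and lists were made with Python 3.11.15, pandas 2.3.3 and matplotlib 3.10.9.

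The comparison, the genes and the 48 lists, 9 of them cell markers, were chosen with earlier results of these data known. Genes were named by a rule: fixed genes of the study, the 10 largest rises and 10 largest falls called with and without DKO 4, of mean CPM of at least 1 and no overlap between groups, the same number called only without DKO 4 where DKO 4 lay within the WT range, and up to 6 genes per list. Part of those so named are described, and some genes are not reported here. Tested on simulated data for DKO against WT, edgeR recovered 172 of 200 changed genes with 9 false calls among 14190 genes tested, and without DKO 4 it recovered 181 of 200 with 13 false calls among 14415. With no gene changed it made 0 calls among 14247 and 1 among 14408. The changed genes had a median absolute log2 fold change of 1.96 (1.99 without DKO 4). All simulated DKO livers shared 1 mean per gene, and none was set apart as DKO 4 is. The recovery and false calls therefore do not carry over to smaller changes or to the group with DKO 4.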

Additional observations from a re-analysis of the deposited data

Results flagged for a closer look

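Each group of 4 livers was tested for 1 liver far from the other 3 by Dixon's ratio of its gap to the range at the 95% critical value. Of 280 groups tested for the genes and lists named here, 32 were past it. Chance flags about 1 in 20 groups, but this cannot be set against the count, because some of the genes were picked for a DKO 4 value within the WT range. Of these 20 were in DKO, 19 of them through DKO 4, and 12 in WT livers.

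In DKO 4 the level was within the WT range, away from the other DKO livers, for Akr1d1 (285 CPM), Car5a (67.4 CPM), Tk1 (35.4 CPM), Noct (66.0 CPM), Cyp26a1 (3.99 CPM), Hal (579.9 CPM), Cyp3a11 (2569 CPM), Ifit1 (11.0 CPM), Marco (5.70 CPM) and Apoa4 (498 CPM). For the list median of cytochrome P450 families 1 to 3 (0.17 on the log2 scale) it lay above WT. For Fbp1 (1019.6 CPM), Slc2a2 (359 CPM), Usp2 (38.1 CPM), Birc5 (0.745 CPM), Saa3 (4.58 CPM) and Nrg1 (0.586 CPM) it lay between the WT and the other DKO livers. Cyp2a4 (426 CPM) and Cyp2c69 (659 CPM) were high in DKO 4 alone among DKO and WT livers. DKO 2 was far above the other DKO livers for Adra2a (47.1 CPM).

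Among WT livers, WT 3 stood apart for Pdk4 (12.6 CPM), Slc16a1 (32.9 CPM), Ciart (76.7 CPM), Cyp7a1 (192 CPM) and Saa3 (11.2 CPM). WT 2 did so for Nupr1 (0.886 CPM), Adra2a (0.127 CPM), Mup8 (1461 CPM) and Esrra (70.1 CPM), and WT 4 for Mid1ip1 (25.7 CPM), Fabp3 (0.220 CPM) and Ly6d (5.88 CPM).

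In the direct test without DKO 4, Usp2 and Elovl7 were lower in DKO than in SKO livers, by a log2 difference of -2.83 and -1.67 (edgeR adjusted p = 0.0320 and 0.0152).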

How the results depend on the processing

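The count of genes called between DKO and WT was 1510 with edgeR, 2509 with DESeq2 and 1465 to 1729 with other scaling, filters or all 12 livers in the fit. Without 1 liver it ranged from 244 (without WT 2) to 5253 (without DKO 4). With the replicate block it was 691, of which 48.0% were higher against 58.0% in the fit without it, and 72 of the 91 named genes called kept their call. Same-numbered DKO and WT livers had correlations of their deviations of 0.04, 0.15, -0.17 and 0.04, and those of DKO and SKO livers -0.01, 0.07, -0.38 and -0.42, so the livers shared a number only and no pairing was used. Without DKO 4 the count was 5253 with edgeR, 4228 to 5561 under the alternatives and 4172 to 4945 without a further liver. DKO against SKO gave 3 genes with edgeR, 91 with DESeq2 and 0 with the replicate block (643 at an unadjusted p under 0.05). Without 1 liver it ranged from 0 (without SKO 2, SKO 3, SKO 4, DKO 1 or DKO 3) to 15 (without DKO 4). Leaving SKO 3 out of the fit of DKO 1 to 3, an alternative chosen after seeing the data, gave 21. SKO against WT gave 3617 to 4973. Signs turned for Cyp2a4, from 6.57 to -0.92 without DKO 4 (range without 1 liver -0.92 to 7.35), and for Cyp2c69, from 4.78 to -1.74 with the block and -3.21 without DKO 4 (range -3.21 to 5.27). Apobr, which was not called in any of these fits, went from 0.18 to -0.010 without WT 4 and -0.053 without DKO 3 (range without 1 liver -0.053 to 0.32), and without DKO 4 from 0.26 to -0.031 without DKO 3 as well (range -0.031 to 0.46). Of the list medians, 11 of 196 moved by more than the spread between livers with all DKO livers and 17 of 182 without DKO 4. The causes were not tested.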

Other observations

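Single genes of the mitochondrial carriers and of pyruvate entry differed from WT in all 4 DKO livers. Of 15 carriers and uncoupling proteins, 2 were called higher and 1 lower (4 and 4 of 16 without DKO 4), where 6.06% of all genes were called higher and 4.39% lower (18.4% and 17.5%), and nothing is read from the counts of these lists. Slc25a30 had 141, 147, 106 and 88.7 CPM in DKO 1 to 4 and 28.8 to 52.3 CPM in WT livers, and Slc25a47, a liver carrier, had 2094, 2266, 1767 and 1173 CPM against 681 to 863 CPM. Slc25a10, the dicarboxylate carrier, had 150.1, 157, 203 and 259 CPM against 319.8 to 396 CPM. The groups did not overlap in these genes, at 1.54 ± 0.22, 1.26 ± 0.21 and -0.89 ± 0.19 (edgeR adjusted p = 0.00835, 0.0121 and 0.0244). Of 12 genes of pyruvate entry, 2 were called higher and 0 lower (3 and 3 without DKO 4), Pdk4 and Mpc1, a subunit of the mitochondrial pyruvate carrier, with 46.9, 54.4, 62.9 and 61.9 CPM against 29.0 to 42.3 CPM (0.67 ± 0.15, edgeR adjusted p = 0.0286).

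Onecut1, a hepatocyte transcription factor, had 2.99, 1.59, 4.12 and 4.79 CPM against 5.27 to 17.4 CPM, Mmp15, a membrane metalloproteinase, had 8.78, 11.0, 12.9 and 23.0 CPM against 36.0 to 45.6 CPM, and Saa3, a serum amyloid A protein, had 1.93, 1.65, 1.52 and 4.58 CPM against 6.14 to 11.2 CPM. All 3 fell with all DKO livers, by 1.91, 1.50 and 1.63 on the log2 scale (edgeR adjusted p = 0.0252, 0.0147 and 0.0317). Their lists were the growth hormone and IGF axis (1 higher and 2 lower of 16, 1 and 6 without DKO 4), collagens and matrix remodelling (0 and 1 of 23, 3 and 3) and acute-phase proteins (1 and 2 of 18, 1 and 9). Of 22 pericentral genes, 0 were called higher and 2 lower (0 and 15 without DKO 4), and of 6 Cyp4a genes edgeR called 0 with all DKO livers (0 at an unadjusted p under 0.05) and 4, all higher, without DKO 4. The background for these lists was 6.06% higher and 4.39% lower, and 18.4% and 17.5% without DKO 4. Nothing is read from their counts with all livers, nor from those of collagens and matrix remodelling without DKO 4. Creb3, a membrane-bound relative of Atf3, had 78.5, 76.2, 68.2 and 38.2 CPM against 37.5 to 45.0 CPM and rose without DKO 4 (0.87 ± 0.10, edgeR adjusted p = 6.35e-05). Creb3l3, Esrra and Nnt were not called with or without DKO 4, at 0.23 ± 0.13, 0.09 ± 0.12 and 0.51 ± 0.23 with all livers (edgeR adjusted p = 0.273, 0.653 and 0.181).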
